A study of Mus musculus with 6 samples.

Results

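The 9 genes described here encode the liver X receptors (LXRs), their dimer partner and a set of their targets in cholesterol efflux and lipid remodelling. They were taken by name from a deposited table of 55401 genes, and each matched 1 row. They are Nr1h2 and Nr1h3, which encode LXRβ and LXRα; Rxra, which encodes the retinoid X receptor RXRα; the sterol transporter genes Abca1 and Abcg1; Apoe; Pltp; Lpcat3; and Srebf1. LXRs are nuclear receptors that bind DNA as dimers with an RXR and are activated by oxysterols and by the sterol precursor desmosterol. In macrophages, which take in cholesterol with lipoproteins and cell debris, they raise transcription of genes that load cholesterol onto lipoprotein particles, and they also act on genes of phospholipid and fatty acid synthesis.

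RNA levels come from bone marrow-derived macrophages (BMDMs). These are cells grown from marrow in the macrophage growth factor M-CSF, which all libraries received. RNA sequencing gave 3 Lamtor5 knockdown libraries and 3 wild-type (WT) libraries of mouse cells. Lamtor5 (HBXIP) belongs to the Ragulator complex, which tethers mTORC1 and the Rag GTPases to lysosomes. The mutant mice are described by the submitters as HBXIPΔLysM. LysM is lysozyme M, the product of the Lyz2 gene. The promoter of Lyz2 is used to drive Cre recombinase in myeloid cells, so any cells outside that lineage in a culture would keep Lamtor5. Lamtor5 was not measured by cell type here. Age and strain are not given in the labels, nor whether replicates stem from different mice or cultures; p-values therefore measure the spread among these libraries, and that spread may be technical. Lamtor5 itself was at 25.5, 27.1 and 24.8 FPKM in the knockdown and at 55.9, 54.5 and 56.2 FPKM in WT, so that the knockdown mean was 46.5% of the WT mean (FPKM, fragment counts scaled for gene length and library size, as deposited). Knockdown replicate 3 stood apart at the Cre locus: Lyz2 had 11356, 10650 and 73.6 FPKM in knockdown replicates 1 to 3, against 29379, 24743 and 22454 FPKM in WT. The estimates of the 9 genes are given below also without it. Each library held 26.0 to 28.0 M read pairs, with a sum of 75.8 to 83.2 M estimated counts, and a library had between 1033 (Nr1h3, WT replicate 2) and 188173 (Apoe, knockdown replicate 3) estimated counts for each of the 9 genes.

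The promoter sequences are shown for the letters they hold of the element that LXRs bind. RefSeq promoters (GRCm38.p6, 250 bases before to 50 after a start) were found for 8 of the 9 genes, 14 promoters in all, since Apoe and Srebf1 have 3 listed starts each and Nr1h3 and Rxra 2 each; Abcg1 was not matched. LXR and RXR dimers are known to bind direct repeats of a 6-base half-site with a 4-base spacer (DR4). The form described first, searched on both strands, has GGTTA and CGGTCA as half-site letters with any 4 bases between them. GGTTA leaves out the first base of the 6-base half-site. This form was chosen after reading the Abca1 and Srebf1 promoters, so its presence there is no finding. It occurred in 4 of 32851 promoters (0.0122%), those of Abca1, Srebf1, Fasn and Prrg4. The 4 sites, each on the strand opposite to its gene, are written with the half-site letters in capitals and the spacer in lower case.
Abca1, chr4:53159948-53159962: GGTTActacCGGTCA
Srebf1, chr11:60210639-60210653: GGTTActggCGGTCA
Fasn, chr11:120824758-120824772: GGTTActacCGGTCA
Prrg4, chr2:104849903-104849917: GGTTAccttCGGTCA
The Abca1 and Fasn sites were the same 15 bases. They lay 67 to 53 bases before the Abca1 start and 225 to 211 bases before the Fasn start, and the Srebf1 site 182 to 168 bases before start 3 of its listed starts. A match is a description of these letters and not evidence of binding.

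The 3 promoters below belong to the 2 genes of the group with such a site and to Pltp, the gene that passed the test; each is 5′ to 3′ on the strand of the gene, with the DR4 match in capitals.
Abca1 promoter, chr4:53159846-53160145, minus strand: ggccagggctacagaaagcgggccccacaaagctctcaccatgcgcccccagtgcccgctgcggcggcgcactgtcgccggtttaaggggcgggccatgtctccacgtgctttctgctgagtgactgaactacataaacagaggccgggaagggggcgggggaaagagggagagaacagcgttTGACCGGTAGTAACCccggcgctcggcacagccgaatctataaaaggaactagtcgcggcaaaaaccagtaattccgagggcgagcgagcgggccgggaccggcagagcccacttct
Srebf1 promoter at start 3, chr11:60210422-60210721, minus strand: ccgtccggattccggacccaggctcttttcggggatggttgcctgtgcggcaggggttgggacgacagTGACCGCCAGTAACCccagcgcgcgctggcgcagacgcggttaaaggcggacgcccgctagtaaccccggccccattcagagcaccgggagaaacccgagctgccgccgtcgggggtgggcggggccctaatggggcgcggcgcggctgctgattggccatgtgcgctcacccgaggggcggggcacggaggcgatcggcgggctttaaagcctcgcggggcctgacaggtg
Pltp promoter, chr2:164857659-164857958, minus strand: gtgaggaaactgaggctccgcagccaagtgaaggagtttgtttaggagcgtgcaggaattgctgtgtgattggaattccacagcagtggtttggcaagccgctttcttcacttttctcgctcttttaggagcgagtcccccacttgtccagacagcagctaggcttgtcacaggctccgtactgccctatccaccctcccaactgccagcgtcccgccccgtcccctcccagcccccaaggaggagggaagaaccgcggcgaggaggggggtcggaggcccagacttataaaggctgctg
The repeat with identical half-sites, AGGTCA before and after any 4 bases, occurred in 5 of 32851 promoters (0.0152%) and in none of the 14. The sterol regulatory element TCACCCCAC was in 0.551% of all promoters and in none of the 14. The E-box CACGTG was in 7.15% of all promoters and in that of Abca1, 147 to 142 bases before the start. The Pltp promoter held none of these 4 motifs within this window.

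Of the 9 genes, 1 passed the test between the groups: Pltp was lower in the knockdown. Nr1h3, Rxra and Apoe had higher means in the knockdown and Srebf1 a lower one, without passing. All 9 were tested with edgeR's quasi-likelihood test, with Benjamini-Hochberg adjustment over 18164 genes and a threshold of 0.05. The share called, 11.1%, was near that of all tested genes, of which 11.3% passed (4.87% higher and 6.46% lower in the knockdown). The median log2 fold change of the 9 was 0.17, against 0.02 for all tested genes. Groups did not overlap in 6 of the 9, against 37.6% of all tested genes: 3 lay higher (16.3% of all) and 3 lower (21.3% of all) in the knockdown. At an unadjusted p under 0.05 there were 5 of the 9, against 30.2% of all. All tested genes include many at low levels, whereas each of the 9 had a mean above 5 FPKM. In limma on log2(FPKM + 1), 5 of the 9 had such a p. The share of all genes was 37.2% at a mean of at least 1 FPKM and 41.8% at 5 FPKM. DESeq2 called 4 of the 9, Nr1h3 and Rxra higher and Pltp and Srebf1 lower, where it called 21.2% of the 17139 genes to which it gave an adjusted p. Limma on log2(FPKM + 1) with a mean of at least 1 FPKM called 2, Pltp and Srebf1, and 17.1% of all. Both edgeR counts, of the 9 and of all genes, moved with single libraries left out. EdgeR called 0 of the 9 without knockdown replicates 1, 2 or 3 (5, 5 and 3 at an unadjusted p under 0.05, against 25.9%, 25.4% and 24.2% of all genes), where it called 377, 1130 and 781 genes in all (1.98%, 6.0% and 4.15%), against 2058 with 6 libraries. It called 1 of the 9 and 2334 genes (12.3%) with WT replicate 1 left out, 0 of the 9 and 0 genes with WT replicate 2 left out (2 of the 9 and 4065 genes, 21.4% of all, at an unadjusted p under 0.05), and 0 of the 9 and 625 genes (3.29%) with WT replicate 3 left out (4 of the 9 and 23.3% of all genes at an unadjusted p under 0.05). DESeq2 and limma were not run on 5 libraries. EdgeR without a count filter, unfiltered limma and edgeR with a replicate block each called 0 of the 9, where they called 4.29%, 2.81% and 4.01% of all genes; 5, 5 and 4 of the 9 had an unadjusted p under 0.05, against 20.3%, 20.9% and 26.4% of all genes.

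**Figure D1:**
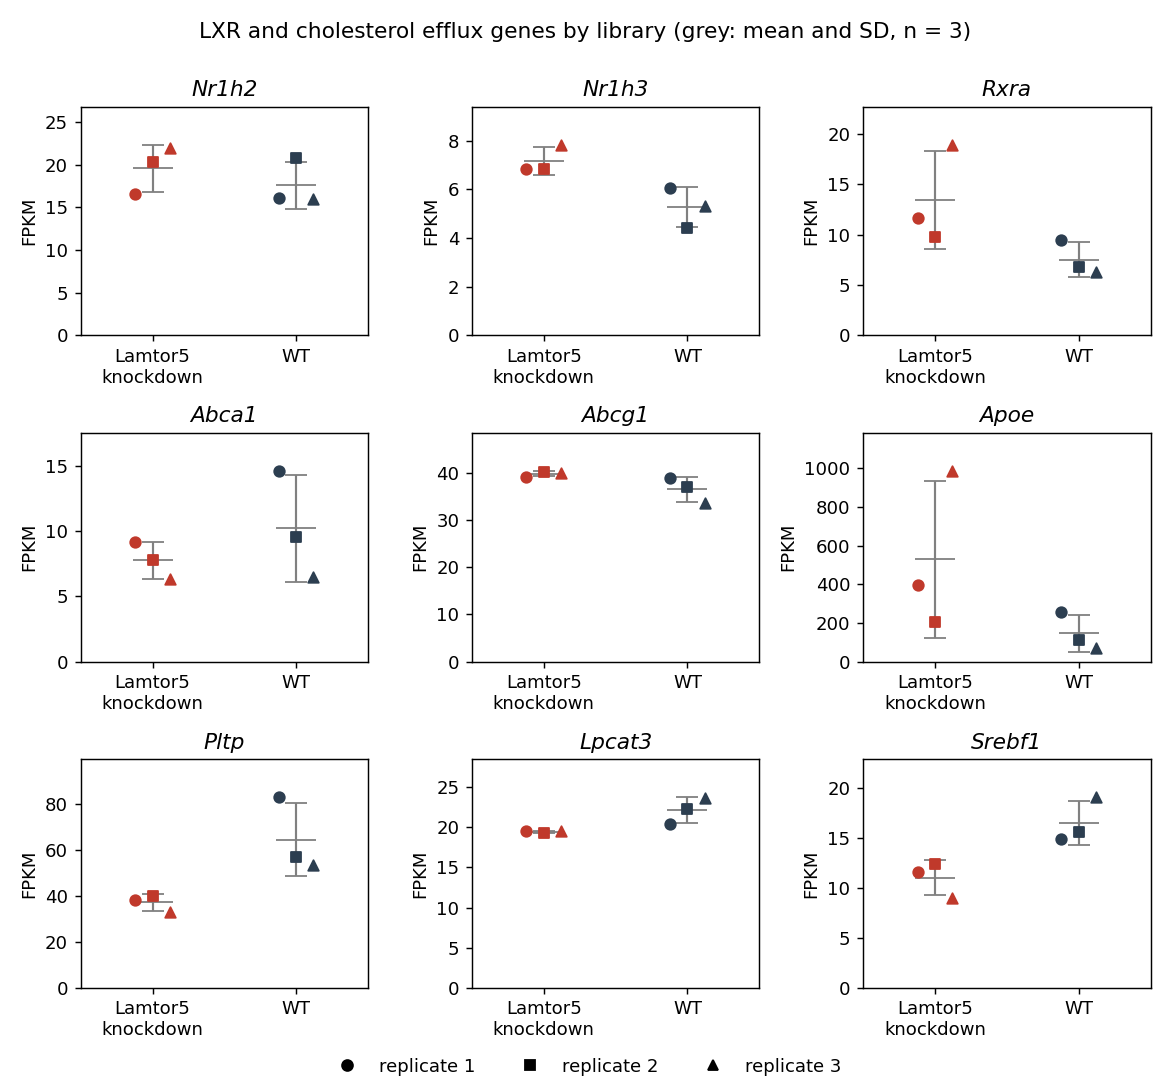
Level of each of the 9 genes in FPKM (y axis, from 0, a separate scale for each gene) in the 3 Lamtor5 knockdown and 3 WT libraries (points, shaped by replicate number), with mean and SD in grey. All knockdown points lie below all WT points for Pltp, Lpcat3 and Srebf1, and above them for Nr1h3, Rxra and Abcg1, whereas the groups overlap for Nr1h2, Abca1 and Apoe.

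Among the receptor genes, LXRβ was the more abundant LXR transcript in each library and the LXRα transcript was the one with separate groups. Nr1h3 (LXRα; ENSMUSG00000002108, chromosome 2, 91184061 to 91202834, minus strand, 10 exons) was at 6.83, 6.84 and 7.83 FPKM in the knockdown and at 6.04, 4.40 and 5.34 FPKM in WT. Its lowest knockdown library lay above its highest WT library, but the log2 fold change of 0.49 (SE 0.16) had an adjusted p of 0.0868 in edgeR. DESeq2 gave it an adjusted p of 0.0459. Nr1h2 (LXRβ; ENSMUSG00000060601, chromosome 7, 44549616 to 44553949, minus strand) was at 16.6, 20.3 and 21.9 FPKM in the knockdown and at 16.1, 20.8 and 15.9 FPKM in WT. The groups overlapped, and the log2 fold change was 0.20 (SE 0.14, edgeR adjusted p = 0.379).

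Within a library, the FPKM ratio of Nr1h3 to Nr1h2 was 0.412, 0.337 and 0.357 in the knockdown and 0.375, 0.212 and 0.335 in WT. LXRα transcripts were thus fewer than LXRβ transcripts per length in all 6 libraries. The log2 ratio was 0.30 higher in the knockdown (-1.44 ± 0.15 in the knockdown, -1.74 ± 0.44 in WT; SD, n = 3), which an exact two-sided permutation test did not separate (p = 0.4, also after adjustment over the 2 ratios tested; 0.1 is the smallest possible).

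Rxra (ENSMUSG00000015846, chromosome 2, 27676440 to 27762957, plus strand) encodes the partner with which LXRs bind DNA. It was at 11.7, 9.75 and 18.9 FPKM in the knockdown and at 9.46, 6.83 and 6.30 FPKM in WT. The groups did not overlap, but only narrowly, and knockdown replicate 3 was the highest library by far. The log2 fold change of 0.89 (SE 0.29) had an edgeR adjusted p of 0.0925, and it was 0.55 with adjusted p = 0.198 without knockdown replicate 3. DESeq2 gave an adjusted p of 0.0132 with all libraries.

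The transporter genes, whose products move cholesterol out of the cell to apolipoprotein A-I (Abca1) and to high-density lipoprotein (Abcg1), did not change by the test. Abca1 (ENSMUSG00000015243, chromosome 4, 53030787 to 53159895, minus strand, 50 exons) was at 9.17, 7.75 and 6.35 FPKM in the knockdown and at 14.6, 9.52 and 6.50 FPKM in WT. The lowest WT library lay within the knockdown range, and the WT libraries spanned 2.24-fold. The log2 fold change was -0.35 (SE 0.30, edgeR adjusted p = 0.481), 0.016 without WT replicate 1 and -0.60 without WT replicate 3. Abcg1 (ENSMUSG00000024030, chromosome 17, 31057675 to 31117988, plus strand) was at 39.3, 40.3 and 40.1 FPKM in the knockdown and at 38.9, 37.1 and 33.8 FPKM in WT. The knockdown libraries lay within 1.03-fold of each other and just above WT. The log2 fold change of 0.17 (SE 0.083) did not pass (edgeR adjusted p = 0.216).

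Abcg1 exceeded Abca1 per length in all 6 libraries. The FPKM ratio of Abcg1 to Abca1 was 4.28, 5.20 and 6.31 in the knockdown and 2.67, 3.90 and 5.19 in WT. The groups overlapped, and the log2 ratio was 0.46 higher in the knockdown (2.38 ± 0.28 in the knockdown, 1.92 ± 0.48 in WT; SD, n = 3; exact two-sided permutation p = 0.2, 0.4 after adjustment over the 2 ratios).

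Apoe (ENSMUSG00000002985, chromosome 7, 19696109 to 19699188, minus strand, 4 exons) encodes apolipoprotein E, which macrophages secrete and which accepts cholesterol from the transporters. It was the most abundant of the 9 transcripts and the most variable within each group. It was at 394, 205 and 986 FPKM in the knockdown and at 256, 111 and 69.9 FPKM in WT. The libraries spanned 4.80-fold within the knockdown and 3.65-fold within WT, and WT replicate 1 lay above knockdown replicate 2. The mean was 528 ± 407 FPKM in the knockdown, against 146 ± 97.4 FPKM in WT (SD, n = 3), a log2 fold change of 1.91 (SE 0.70) that did not pass (edgeR adjusted p = 0.121). Without knockdown replicate 3 it was 1.08 with adjusted p = 0.321, and without WT replicate 1 it was 2.62 with adjusted p = 0.0704. In bulk RNA, fewer cells of a type and less RNA per cell cannot be told apart, for this and for every other gene here.

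Of the phospholipid genes, Pltp passed and Lpcat3 did not. Pltp (ENSMUSG00000017754, chromosome 2, 164839518 to 164857633, minus strand, 15 exons) encodes phospholipid transfer protein, a secreted protein that moves phospholipids between lipoproteins. It fell to 38.4, 40.2 and 33.1 FPKM in the knockdown, against 83.0, 57.0 and 53.8 FPKM in WT. Every knockdown library lay below every WT library, and the mean was 57.6% of that of WT. The log2 fold change was -0.75 (SE 0.19, edgeR adjusted p = 0.0474), just under the threshold. The call held in 1 of the 6 fits with a library left out, the one without WT replicate 1 (-0.51, adjusted p = 0.0276), and was lost in the other five, with log2 fold changes of -0.88 to -0.68 and adjusted p of 0.0617 to 0.133. Pltp shares 502 bases with Ctsa on the other strand. Ctsa, which encodes a lysosomal carboxypeptidase, was itself higher in the knockdown, at 339 ± 26.4 FPKM against 219 ± 11.3 FPKM in WT (log2 fold change 0.68, edgeR adjusted p = 0.0159). Whether counting used strand is not given in the sources used here, and the part of Ctsa reads in the Pltp values was not tested.

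Lpcat3 (ENSMUSG00000004270, chromosome 6, 124663027 to 124704418, plus strand) encodes the enzyme that puts polyunsaturated fatty acids into membrane phospholipids. It was at 19.5, 19.3 and 19.6 FPKM in the knockdown and at 20.4, 22.3 and 23.6 FPKM in WT. The groups did not overlap, but the difference was small, with a log2 fold change of -0.13 (SE 0.077, edgeR adjusted p = 0.295). It shares 334 bases with Emg1 on the other strand, which was at 8.58 ± 1.07 FPKM in the knockdown, against 9.78 ± 0.759 FPKM in WT.

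Srebf1 (ENSMUSG00000020538, chromosome 11, 60199089 to 60222581, minus strand, 19 exons) encodes the SREBP-1 transcription factors. Its SREBP-1c form is known as an LXR target and drives fatty acid synthesis genes; the table counts the gene as a whole. It was at 11.6, 12.4 and 9.02 FPKM in the knockdown and at 14.9, 15.6 and 19.0 FPKM in WT. All knockdown libraries lay below all WT libraries, and the mean was 66.7% of that of WT. The log2 fold change of -0.54 (SE 0.14) just missed the threshold (edgeR adjusted p = 0.0541). It passed in 5 of the 16 other settings, among them DESeq2 (adjusted p = 0.00908) and limma on log2(FPKM + 1) (adjusted p = 0.0489), and in none of the 6 fits with a library left out (adjusted p of 0.0615 to 0.138).

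**Figure D2:**
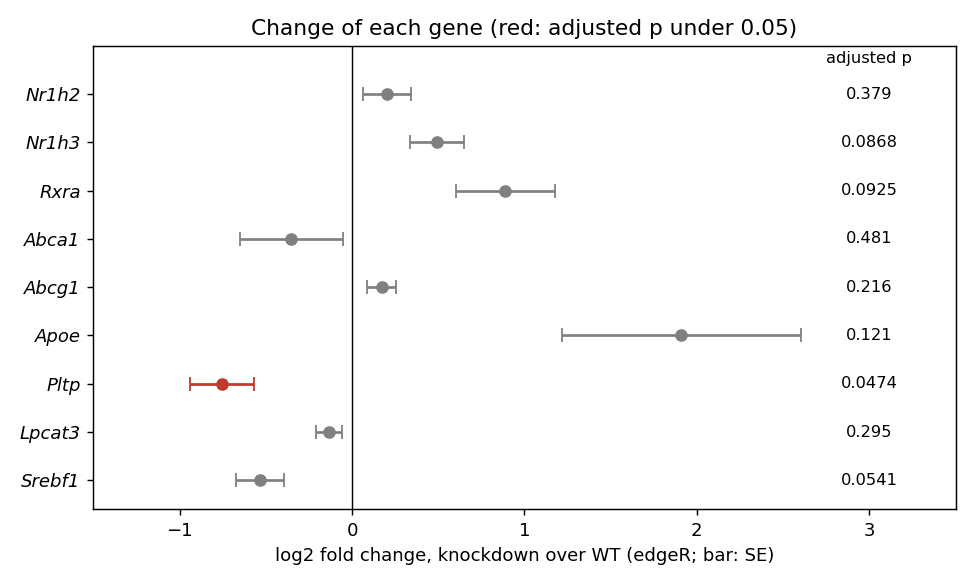
Log2 fold change of the knockdown over WT (x axis, points) with its SE (bars) for the 9 genes (y axis), with edgeR's adjusted p at the right. Pltp, in red, is the gene that passed, at -0.75; Apoe has the largest estimate, 1.91, and the widest SE, 0.70.

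Without knockdown replicate 3 the log2 fold changes were 0.11 for Nr1h2, 0.42 for Nr1h3, 0.55 for Rxra, -0.23 for Abca1, 0.16 for Abcg1, 1.08 for Apoe, -0.68 for Pltp, -0.15 for Lpcat3 and -0.42 for Srebf1. Of 16 other settings, each of Nr1h2, Nr1h3, Rxra, Abcg1, Apoe, Pltp, Lpcat3 and Srebf1 kept the sign of its log2 fold change in all 16, and Abca1 in 15. Pltp passed in 8 of them, Srebf1 in 5, and Nr1h3 and Rxra in 1 each, DESeq2. Nr1h2, Abca1, Abcg1, Apoe and Lpcat3 passed in none of them. The plot with 1 library left out shows how far single libraries moved each estimate.

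**Figure D3:**
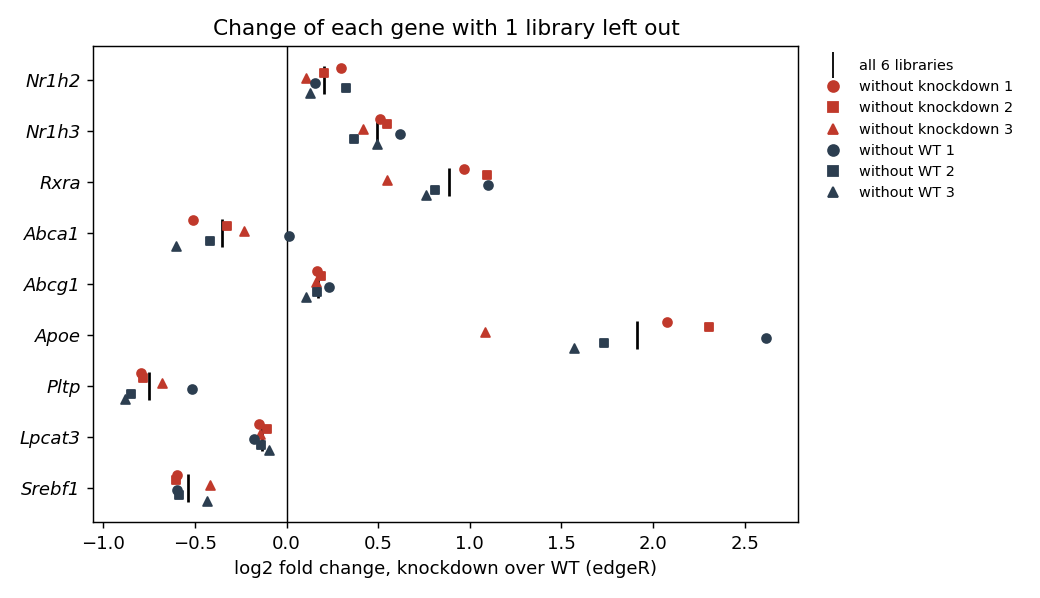
Log2 fold change of the knockdown over WT (x axis) for each of the 9 genes (y axis) with all 6 libraries (black bar) and with 1 library left out (points, coloured by the group and shaped by the replicate that was left out). Apoe ranges from 1.08 to 2.62, and Abca1 reaches 0.016 without WT replicate 1; the other genes stay on their side of 0.

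The order of the levels per length was alike in both groups at the top and the bottom. In the knockdown the mean FPKM ran from 528 for Apoe through 39.9 for Abcg1, 37.2 for Pltp, 19.6 for Nr1h2, 19.5 for Lpcat3, 13.5 for Rxra, 11.0 for Srebf1 and 7.76 for Abca1 to 7.17 for Nr1h3. Here the library ranges separated Apoe from Abcg1, Pltp from Nr1h2 and Lpcat3 from Rxra, and overlapped between the other neighbours. In WT it ran from 146 for Apoe through 64.6 for Pltp, 36.6 for Abcg1, 22.1 for Lpcat3, 17.6 for Nr1h2, 16.5 for Srebf1, 10.2 for Abca1 and 7.53 for Rxra to 5.26 for Nr1h3. There the ranges separated Pltp from Abcg1, Abcg1 from Lpcat3, Srebf1 from Abca1 and Rxra from Nr1h3, and overlapped between the other neighbours. All 9 were among the better expressed genes: between 68.1% (Nr1h3) and 99.4% (Apoe) of the tested genes had a lower mean FPKM.

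Across the 6 libraries some of the genes varied together. The values are Pearson correlations (n = 6 libraries) of log2 counts scaled for library size, given as descriptions because the libraries share the group difference. Apoe and Rxra had r = 0.990, and both were highest in knockdown replicate 3 and lowest in WT replicate 3. Srebf1 ran against them, with r = -0.938 to Rxra and -0.926 to Apoe. Abca1 was nearly unrelated to Apoe (r = 0.031) and to Rxra (r = -0.097), and was closest to Pltp (r = 0.749), with which it shared its highest library, WT replicate 1. Among 5944 other tested genes with a mean of at least 5 FPKM, the gene most alike over the 6 libraries, given here for 8 of the 9, was Casp9 for Nr1h2 (r = 0.981), Poll for Nr1h3 (0.995), Il13ra1 for Rxra (0.993), Gpr65 for Abca1 (0.995), Sidt2 for Abcg1 (0.996), Acbd3 for Apoe (0.997), Scap for Lpcat3 (0.992) and Mlec for Srebf1 (0.995). Each is the highest of 5944 correlations over only 6 libraries, where values near 1 arise easily, so they are no evidence of shared regulation. They also do not measure the size of a change: Acbd3 had a log2 fold change of 0.17, against 1.91 for Apoe.

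Other genes of the pathway were read from 7 lists, chosen with earlier results of these data known. Their share called is therefore a description and no support for a change of the pathway. Counting each gene once, 77 of 89 were tested, and 5 were higher and 19 lower in the knockdown, 31.2% against 11.3% of all tested genes. The median log2 fold change was -0.14, against 0.02 for all tested genes. All tested genes include many at low levels. Limma on log2(FPKM + 1) called 17.1% of all genes with a mean of at least 1 FPKM and 23.0% at 5 FPKM. Of the pathway genes these fits called 26 and 24. The edgeR count of 24 moved with single libraries left out, and so did the share of all genes called. Leaving out knockdown replicate 1, 2 or 3 gave 1, 14 or 8, against 1.98%, 6.0% and 4.15% of all genes. Leaving out WT replicate 1, 2 or 3 gave 26, 0 or 4, against 12.3%, 0% and 3.29% of all genes. In the fit lacking WT replicate 2, edgeR called no gene of the table, at a smallest adjusted p of 0.0616 and with 4065 genes at an unadjusted p under 0.05. Among 12 tested further LXR targets 4 were lower and 1 higher. Lpl, which encodes lipoprotein lipase, fell to 20.9 ± 10.6 FPKM in the knockdown, against 113 ± 37.1 FPKM in WT (log2 fold change -2.39, edgeR adjusted p = 0.0183). The desaturase genes Scd1 (-1.29) and Scd2 (-0.76) and the fatty acid synthase gene Fasn (-0.51, adjusted p = 0.0379) were lower too. Tgm2, which encodes transglutaminase 2, was higher (0.49, adjusted p = 0.0474). Smpdl3a, a phosphodiesterase gene and the most abundant of the list, was at 244 ± 21.1 FPKM in the knockdown, against 178 ± 44.3 FPKM in WT and did not pass (0.50, adjusted p = 0.134). Abcg4, Abcg5, Abcg8, Apoc1, Apoc4 and Pnpla3 were under the count filter. Of the genes with the DR4 form in their promoter, Fasn thus passed, Srebf1 and Abca1 did not, and Prrg4 did not (-0.32, adjusted p = 0.493).

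Receptor partners and cofactors were lower where they passed. Of all tested genes, 6.46% were called lower and 4.87% higher in edgeR. Of 18 tested, 5 passed, all of them lower, among them Tbl1x, which encodes a subunit of nuclear receptor co-repressor complexes (log2 fold change -0.45, edgeR adjusted p = 0.0241), the co-activator gene Ncoa3 (-0.50, adjusted p = 0.0141) and the acetyltransferase genes Crebbp (-0.40) and Ep300 (-0.30). In the list of oxysterol and desmosterol enzymes 3 of 9 passed, all lower. Ch25h, which encodes the enzyme that makes 25-hydroxycholesterol, fell to 0.660 ± 0.208 FPKM in the knockdown, against 2.47 ± 0.743 FPKM in WT (-1.85, adjusted p = 0.0199). Ebp was lower as well (-0.36).

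Genes of cholesterol uptake, storage and transport went both ways, with 4 of 17 lower and 2 higher, against 6.46% and 4.87% of all tested genes. The receptor genes Scarb1 (-0.49, edgeR adjusted p = 0.0120) and Lrp1 (-0.42) and the transporter gene Abca7 (-0.68) were among those lower. The fatty acid and lipoprotein receptor gene Cd36 was higher, at 51.0 ± 7.07 FPKM in the knockdown, against 31.4 ± 3.40 FPKM in WT (0.75, adjusted p = 0.0246). Soat1, which encodes the enzyme that esterifies cholesterol for storage, was higher at 73.6 ± 5.19 FPKM in the knockdown, against 50.0 ± 3.55 FPKM in WT (0.61, adjusted p = 0.0170). Npc2, a lysosomal cholesterol carrier gene with the highest mean of the list over all 6 libraries, was at 264 ± 25.2 FPKM in the knockdown, against 195 ± 23.0 FPKM in WT and missed the threshold (0.48, adjusted p = 0.0649). None of the 6 SREBP processing genes passed in edgeR, where 3 had an unadjusted p under 0.05, and DESeq2 called 1. The shares of all genes were 11.3%, 30.2% and 21.2%, in that order. Limma called 0 of them in 3 fits and 1, Srebf2, with a mean of at least 5 FPKM (adjusted p = 0.0465). That last fit called 23.0% of all genes. Srebf2, the most abundant, was at -0.25 on the log2 scale in edgeR (adjusted p = 0.0622).

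Relatives of the members behaved unlike one another. The share of all tested genes that passed in edgeR was 11.3%. Of 8 lysophospholipid acyltransferase genes related in function to Lpcat3, Mboat1 (-1.18, edgeR adjusted p = 0.0165) and Lpcat2 (-0.66, adjusted p = 0.0409) were lower and Mboat7 (0.45, adjusted p = 0.0494) was higher. Of 8 tested transporter genes of the ABCA and ABCG families other than Abca1 and Abcg1, Abca7 and Abca9 (-1.73, adjusted p = 0.0326) were lower and Abca5 (0.93, adjusted p = 0.0231) was higher; Abca9 and Abca5 had means of 0.265 to 1.04 FPKM in either group.

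**Figure D4:**
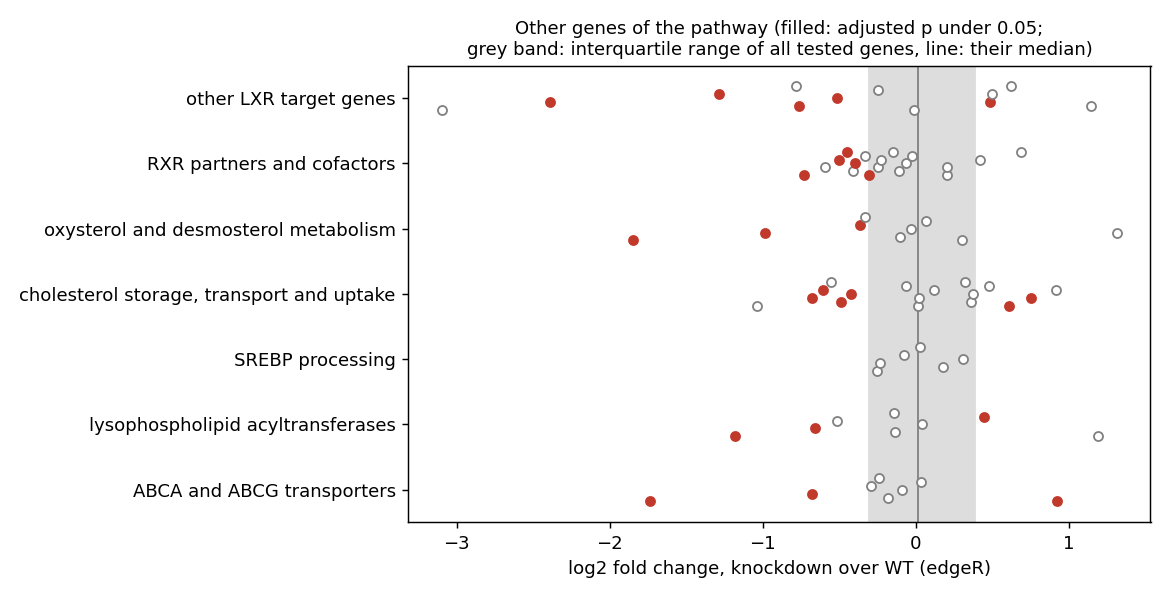
Log2 fold change of the knockdown over WT (x axis) for each tested gene of 7 lists (y axis; filled red, edgeR adjusted p under 0.05), with the interquartile range (grey band) and median (line) of all tested genes. Filled points lie mostly left of the band, as 19 of the 24 genes that passed were lower; the list of SREBP processing holds none.

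Markers of macrophages and of other marrow cells were read beside these values. For reference, edgeR called 4.87% of all tested genes higher and 6.46% lower in the knockdown. Of 9 macrophage markers 6 were lower in the knockdown and 1, Cd68, higher, and their median log2 fold change was -0.93. Among those lower, the means of Csf1r, Adgre1, Itgam, Fcgr1 and Cd14 were 22.3% to 52.7% of those of WT, whereas Cd68 was at 1415 ± 149 FPKM in the knockdown, against 946 ± 21.8 FPKM in WT. Their sum without Lyz2, of which Cd68 made up the greater part in the knockdown, was 1762 to 1927 FPKM in the knockdown, against 1805 to 2019 FPKM in WT. Among the 8 mast cell, basophil and eosinophil markers 2 were higher, with a sum of 6.56 to 15.3 FPKM in the knockdown, against 2.17 to 4.54 FPKM in WT. The erythroid and megakaryocyte list summed to 38.4 to 142 FPKM in the knockdown, against 49.1 to 52.8 FPKM in WT with 1 of 4 tested higher. The gene that passed was Hba-a1, at 2.57 ± 1.84 FPKM in the knockdown, against 0.368 ± 0.071 FPKM in WT. Pf4, which did not pass, made up the greater part of the sum, at 72.6 ± 40.1 FPKM in the knockdown, against 39.4 ± 1.72 FPKM in WT. The neutrophil list had 1 of 8 higher and 1 lower (78.6 to 125 FPKM in the knockdown, 101 to 153 FPKM in WT), the monocyte list 1 of 5 lower (10.8 to 26.5 FPKM in the knockdown, 26.2 to 30.05 FPKM in WT) and the osteoclast list 1 of 5 tested higher (133 to 159 FPKM in the knockdown, 93.9 to 108 FPKM in WT). The osteoclast gene that passed was Itgb3, at 75.8 ± 15.7 FPKM in the knockdown, against 23.5 ± 0.382 FPKM in WT. Of the 5 tested osteoclast genes, 3 had a log2 fold change below 0. None of the dendritic cell (0.855 to 2.21 FPKM in the knockdown, 0.784 to 1.33 FPKM in WT), B cell (1.10 to 5.46 FPKM in the knockdown, 5.69 to 8.19 FPKM in WT), T and NK cell (0.170 to 0.375 FPKM in the knockdown, 0.072 to 0.255 FPKM in WT) or fibroblast markers (0.690 to 5.27 FPKM in the knockdown, 1.72 to 6.17 FPKM in WT) passed in edgeR. At an unadjusted p under 0.05 there were 1, 0, 0 and 1 of them, against 30.2% of all tested genes. DESeq2 called 1, 1, 0 and 1, against 21.2% of all. Limma on log2(FPKM + 1) with a mean of at least 1 FPKM called 0 of each, against 17.1% of all. Of the 6 T and NK cell markers only Klrb1c was tested. Cd3d, Cd3e, Cd3g, Trac and Ncr1 were under the count filter. Cd3g was listed at 0.0001 FPKM, the value for a count of 0, in all libraries. The part of these cells in the values of the LXR genes was not tested.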

How the data were processed

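RNA from BMDMs was sequenced in 6 libraries, grouped by the genotype label. Total RNA was purified on columns and libraries were prepared with a SMARTER kit, per the labels' protocols. The submitters' processing notes name the build GRCm38 (mm10). The authors trimmed adapters with cutadapt 1.9, per the file headers. The sources used here do not give the aligner, the counting program or the use of strand. Per the file headers, the deposited table has an estimated count and an FPKM value for every gene in each library. The authors' counts are whole but are estimated counts, 2.95 to 3.01 for each read pair kept, and 16.4% of values from 1 to 30 equal 4; they were used as deposited, and no binomial interval was made. FPKM of 0.0001 stands for a count of 0.

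Genes kept by filterByExpr (minimum count 10) were tested with edgeR 4.0.16 (R 4.3.3): TMM scaling, quasi-likelihood fit on group alone, Benjamini-Hochberg adjustment over 18164 genes. SE is the size of the log2 fold change divided by the square root of F. Within-library ratios were tested by exact permutation of the libraries (scipy 1.17.1). The 16 other settings were RLE scaling, DESeq2 1.42.0, no filter, counts divided by 3, limma 3.58.1 on log2(FPKM + 1) or log2(FPKM + 0.1) with 3 filters, robust estimation, a replicate block and each library left out. Across genes, libraries correlated at 0.961 to 0.974 within groups and at 0.935 to 0.959 between them. Named genes are the 9, the genes of each list that passed (at most 6) with its most abundant one, and the gene most alike to each of the 9; Ctsa, Emg1, Prrg4 and single markers were named after their values were seen. Coordinates are those of the table; exon counts are from GENCODE M21, where 55141 of the 55401 genes were found and 47890 had the same coordinates. The members and lists were chosen with earlier results of these data known. A few genes that the rule names are not reported here.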

Additional observations from a re-analysis of the deposited data

How the results depend on the processing

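The number of genes called was 2058 with edgeR, 3641 with DESeq2, 1205 without a count filter, 791 with limma on log2(FPKM + 1) without a filter, 728 with the replicate number as a block, and 0 to 2334 with 1 library left out. Of the 9 LXR and efflux genes, 1 was called with edgeR and 4 with DESeq2, against 11.3% and 21.2% of all genes. With counts divided by 3 there were 2, against 15.5% of all genes. The 3 limma fits with a minimum mean also called 2 each. They called 17.1% (1 FPKM, pseudocount 1), 17.4% (1 FPKM, pseudocount 0.1) and 23.0% (5 FPKM) of all genes they tested. EdgeR without a count filter, unfiltered limma and the replicate block called 0 of the 9, against 4.29%, 2.81% and 4.01% of all genes. At an unadjusted p under 0.05 these had 5, 5 and 4 of the 9, against 20.3%, 20.9% and 26.4% of all genes. With 1 library left out, 0 to 1 of the 9 were called. Of the other pathway genes 24 were called, 5 in unfiltered limma, 8 with the replicate block and 0 to 26 with 1 library left out. The cause was not tested. The sign reversed for Abca1 without WT replicate 1, where its log2 fold change was 0.016; with 1 library left out it ran from -0.60 to 0.016. No other log2 fold change changed sign among the genes recomputed, which were the 9 and the list genes chosen by the rule; markers, overlapping genes and most alike genes were not recomputed. Over these log2 fold changes, 405 values kept sign and side of the threshold, 148 fell short of it and 13 newly passed. The difference of the log2 ratio kept its sign in all settings, at 0.053 to 0.46 for Nr1h3 to Nr1h2 and 0.21 to 0.69 for Abcg1 to Abca1 with 1 library left out.

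The replicate numbers are not said to pair the libraries. Deviations from the group means correlated at 0.0458, 0.0361 and -0.0108 for same-numbered libraries, and not every library correlated best with its own number. With the block, the ratio differences had exact p = 0.25, the smallest that 3 pairs allow. Depth was lowest for Nr1h3, at 1033 estimated counts in WT replicate 2.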
